A study of Mus musculus with 6 samples.

Results

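Nrf2-type redox genes are a group of 10 RNAs, named by symbol, of the 32285 mouse features counted in single cells of the small intestinal mucosa. They are Nfe2l2, which encodes the transcription factor Nrf2, and 9 genes commonly counted among its targets, namely Gclc, Gclm, Srxn1, Txnrd1, G6pdx, Nqo1, Cbr1, Cbr3 and Akr1b8. All 10 were found in the count tables and all 10 were measured in every library of enterocytes. The group was selected on its label differences in enterocytes of these libraries, together with what the genes are known to do, so that its enterocyte differences are a description and carry no test.

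Cells came from 3 IE-HuR-/- mice and 3 control littermates with 1 droplet library for each. A unique molecular identifier (UMI) on every captured RNA allows molecules rather than reads to be counted. HuR is an RNA-binding protein encoded by Elavl1. According to the study's methods, IE-HuR-/- mice carried HuR fl/fl alleles and villin-Cre. The control littermates carried HuR fl/fl without Cre, although the labels call their genotype wild-type. Villin-Cre is generally taken to be active in the intestinal epithelium and not in immune or stromal cells, which was not measured here. Both groups were of C57BL/6 background, 6 to 8 weeks old, and matched for age and sex. The methods state that animals were deprived of food before experiments, whereas the labels name normal feeding. The labels name the tissue as small intestinal epithelium, and the sums also held 5284 cells with T or NK cell markers.

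The libraries held 59518012 to 91818560 UMIs in 8613 to 15041 barcodes, and 60431 of 60706 barcodes had at least 200 genes. Cells were assigned to a class only when RNAs of a fixed marker list took a minimum share of their UMIs, which placed 25291 barcodes (41.7%) in a class. Of these, 16271 were enterocytes (9196 in the control libraries and 7075 in the libraries labelled IE-HuR-/-), 1209 goblet cells, 241 enteroendocrine cells, 150 tuft cells and 89 crypt progenitors. Pairs of libraries shared 22 to 44 barcodes, at most 0.443%. Elavl1 RNA, given as CPM (UMIs scaled to a common total for each class and library), was 28.4, 30.2 and 28.3 in control enterocytes and 29.4, 29.6 and 30.5 in enterocytes of the libraries labelled IE-HuR-/-. The targeted gene was therefore not lower at the RNA level. The edgeR fit used below, which rescales the sums, called it higher under the IE-HuR-/- label (log2 0.24, SE 0.0485, adjusted p = 8.5e-05). The sources used here do not give the exon that Cre removes, so that these counts may not report the deletion, and every direction below rests on the labels.

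Nrf2 is held in the cytoplasm by Keap1, which marks it for degradation. Oxidants and electrophiles modify Keap1, Nrf2 accumulates and, paired with a small Maf protein, binds antioxidant response elements in the genes it activates. These genes make glutathione, reduce thioredoxin and peroxiredoxins, supply NADPH and reduce quinones and carbonyls, functions that an absorptive epithelium uses against dietary and microbial compounds. The protein level of Nrf2 is set mainly after transcription, so that Nfe2l2 RNA is not a readout of its activity.

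Promoter sequences are shown because they tell which members carry the element core close to their start. RefSeq promoters of build GRCm38.p6, from 250 bases before to 50 bases after the start, were matched for 9 of the 10 members, and Gclc was not among them. They were searched on both strands for TGACNNNGC, the core of the antioxidant response element, and for TGACTCA, the AP-1 type site. A core whose free letters are TCA also holds the AP-1 type site, which was the case in none of the TGACNNNGC matches in members. The core was found in 12.4% of 32851 promoters, in at least 1 promoter of 14% of 27025 genes, and in those of Nfe2l2, Gclm, Txnrd1, G6pdx and Srxn1. A gene can have several promoters, and the 9 members had 11. In the following stretches, written 5′ to 3′ along the gene, capitals mark the core, on either strand, in the first 4, an AP-1 type site on the opposite strand in Srxn1, and nothing in Akr1b8, whose promoter held neither motif.
Nfe2l2, chr2:75704854-75704913, minus strand: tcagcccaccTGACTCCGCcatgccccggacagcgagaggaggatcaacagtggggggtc
Gclm, chr3:122245397-122245456, plus strand: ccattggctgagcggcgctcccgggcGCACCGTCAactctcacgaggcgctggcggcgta
Txnrd1, chr10:82859104-82859133, plus strand: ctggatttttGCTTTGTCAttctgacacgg
G6pdx, chrX:74428918-74428947, minus strand: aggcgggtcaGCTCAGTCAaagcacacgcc
Srxn1, chr2:152105414-152105493, plus strand: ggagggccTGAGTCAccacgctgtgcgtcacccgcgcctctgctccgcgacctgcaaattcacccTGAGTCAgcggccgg
Akr1b8, chr6:34354058-34354117, plus strand: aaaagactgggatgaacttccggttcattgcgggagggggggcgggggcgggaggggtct

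The core lay 240 bases before the start in Nfe2l2, 134 in Gclm, 92 in Txnrd1 and 57 in G6pdx, and 28 bases after it in Srxn1. The start is that of the promoter with the match. For Txnrd1 this promoter (82858956 to 82859255) lies inside the gene, which begins at 82833951. The AP-1 type site, present in 5.2% of all promoters and 5.95% of genes, occurred at 102 and 45 bases before the start of Srxn1 and in no other member. The site at 45 bases is followed by GC, so that TGAGTCAGC stands there. It has G in place of the C of the searched core, a form that was not searched for. These matches are letters in a window and not measured sites. The elements known for Nqo1 and other members can lie outside it.

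Label differences in enterocytes are described first. Akr1b8, an aldo-keto reductase of the Akr1b family that reduces aldehydes and ketones, lies on chromosome 6 (34354119 to 34368463, plus strand, GRCm38). Its level was 2.7, 3.3 and 3.3 CPM in control enterocytes and 51.0, 52.8 and 56.9 CPM in enterocytes of the libraries labelled IE-HuR-/-. Every library labelled IE-HuR-/- lay far above every control library. The log2 fold change was 4.30 (SE 0.0676, 19.7-fold), the 11th highest of 12540 RNAs compared. Its neighbour and paralog Akr1b7 went the other way, from 131.1, 134.5 and 141.5 CPM to 63.4, 63.9 and 67.9 CPM. Of the 50-base windows of the Akr1b8 transcripts, 2.90% also occur in other genes, among them Akr1b7 and Akr1b10, so that some reads could be assigned to several genes.

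Glutathione is made by glutamate-cysteine ligase, whose catalytic subunit is encoded by Gclc and whose modifier subunit by Gclm, and the subunits moved in opposite directions. Gclc was 49.5, 47.4 and 50.2 CPM in control enterocytes and 97.2, 91.9 and 92.0 CPM under the IE-HuR-/- label, a log2 fold change of 1.13 (SE 0.0473). Gclm was 302.6, 295.6 and 300.5 CPM in control enterocytes and 226.8, 237.0 and 234.3 CPM in the others. The libraries of the labels did not overlap for either subunit. On the fitted scale the log2 difference of Gclm was -0.17 (SE 0.0412).

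Srxn1, which encodes the enzyme that repairs over-oxidized peroxiredoxins, was 231.9, 226.8 and 238.1 CPM in control enterocytes and 314.2, 316.7 and 308.8 CPM under the IE-HuR-/- label, with a log2 fold change of 0.63 (SE 0.0419). Txnrd1, cytosolic thioredoxin reductase, was 257.8, 242.4 and 249.4 CPM and 272.5, 271.3 and 270.9 CPM, with a log2 fold change of 0.32 (SE 0.0418). Both genes were higher under the IE-HuR-/- label without overlap. G6pdx, the first and rate-limiting enzyme of the pentose phosphate pathway and a main source of NADPH, was 28.2, 27.2 and 27.9 CPM in control enterocytes and 38.3, 36.6 and 39.7 CPM in the others, again without overlap (log2 fold change 0.66, SE 0.0471). G6pdx shares 6.46% of its 50-base windows with G6pd2.

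The quinone and carbonyl reductases did not share 1 pattern. Cbr3 was 15.1, 16.5 and 17.1 CPM in control enterocytes and 24.2, 26.0 and 22.7 CPM under the IE-HuR-/- label (log2 fold change 0.78, SE 0.0610), and its libraries did not overlap. Its paralog Cbr1 was 380.3, 409.7 and 425.8 CPM in control enterocytes and 367.5, 396.7 and 411.7 CPM under the IE-HuR-/- label, where the libraries overlapped. Nqo1, the quinone reductase often used to report Nrf2 activity, was 42.4, 40.6 and 45.5 CPM in control enterocytes and 40.6, 44.1 and 46.8 CPM in the others, and also overlapped. Nfe2l2 itself was 205.4, 189.5 and 193.8 CPM in control enterocytes and 152.7, 162.9 and 161.0 CPM under the IE-HuR-/- label, so that all 3 of these libraries lay below all 3 controls.

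**Figure D1:**
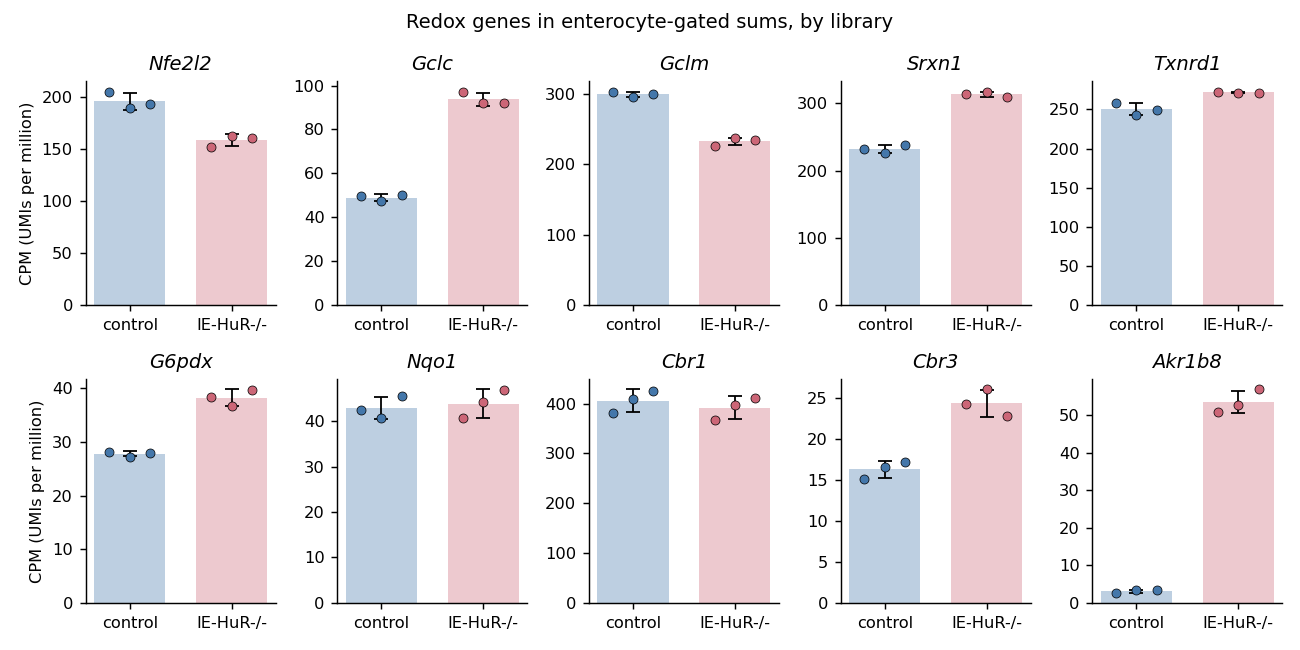
Level of each of the 10 redox genes in enterocytes (CPM of the enterocyte sum, linear axes from 0) by label, with points for the 3 libraries, bars for their mean and error bars for the SD. Akr1b8 stands at 2.7 to 3.3 CPM in the control libraries and at 51.0 to 56.9 CPM in those labelled IE-HuR-/-, whereas Nqo1 and Cbr1 overlap and Gclm and Nfe2l2 are lower.

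On the CPM scale 6 of the 10 members were higher without overlap in enterocytes, 2 were lower and 2 overlapped. Of 12540 RNAs, 15.9% were higher and 52.4% lower by the same criterion. By edgeR, 29.6% of these RNAs were called higher and 29.7% lower at an adjusted p under 0.05 (59.3% in all). The members were picked with this contrast in view, and nothing is read from their count. The scale matters for the small differences, because the median log2 difference over all RNAs was -0.21 without and -0.01 with TMM scaling, which sets the bulk of RNAs to no change. On the fitted scale the median of the 10 members was 0.47 and 8 of them were above 0. Cbr1 stood at 0.15 (SE 0.0463) with TMM and at -0.05 without it, and Nqo1 at 0.23 (SE 0.0513) and 0.04. Nfe2l2 stood at -0.11 (SE 0.0439) and -0.30, and Gclm was also lower on both scales, at -0.17 and -0.36.

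RNAs that mark position along the villus and along the intestine also differed between the labels. A change in where the cells came from and a change in the marker RNAs themselves cannot be told apart here. Enterocytes were divided at the median share of 6 villus-tip RNAs, and the upper-villus cells were 41.5%, 43.6% and 43.1% of enterocytes in the control libraries and 60.7%, 59.7% and 57.9% in the libraries labelled IE-HuR-/-. All 6 villus-tip RNAs were called higher under that label, with summed levels of 6522 to 7187 CPM in the control libraries and 9118 to 9856 CPM in the others. Of the 3 distal markers, 2 were called higher, Fabp6, the ileal bile acid binding protein (4.65-fold), and Slc10a2, the ileal bile acid transporter (2.38-fold), and 1 was called lower. Of the 2 proximal markers, 1 was called lower. No listed marker was at 0. The part of these shifts in the label differences of the members was not tested, and the label differences within upper-villus, lower-villus, Fabp6-low and Fabp6-high cells are given below.

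Along the villus, Cbr3, Cbr1 and Nqo1 belonged to the lower cells. The log2 ratio of upper-villus to lower-villus cells averaged -2.52 ± 0.288 (SD, n = 6 libraries) for Cbr3, -1.85 ± 0.151 for Cbr1 and -1.50 ± 0.150 for Nqo1. Nfe2l2 followed with -0.95 ± 0.123 and G6pdx with -0.49 ± 0.0652. Gclm and Txnrd1 were within 0.25 of even in every library, both slightly lower in upper-villus cells. These 7 genes were lower in upper-villus cells in 6 of 6 libraries, as were 54.1% of 9780 RNAs. Srxn1 alone of the members was higher there in 6 of 6 libraries (log2 0.56 ± 0.0510), as were 23.7% of RNAs. Akr1b8 was near even, with log2 ratios of -0.60 to 0.16. Gclc had ratios of -0.11 to 0.02 in the control libraries and of 0.22 to 0.54 in those labelled IE-HuR-/-, without overlap. The share of all RNAs whose ratios did not overlap between the labels was not counted.

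Within each villus position the label difference was fitted anew. For the 3 genes of the lower cells it was larger within both positions than over all enterocytes. The log2 fold change of Nqo1 was 0.31 (SE 0.0542) in lower-villus and 0.57 (SE 0.0750) in upper-villus cells, beside 0.23 over all enterocytes. That of Cbr1 was 0.29 (SE 0.0503) and 0.49 (SE 0.112), beside 0.15, and that of Cbr3 was 0.97 (SE 0.0889) and 1.34 (SE 0.123), beside 0.78. Akr1b8 had 4.08 in lower-villus and 4.48 in upper-villus cells, and Gclc had 0.81 and 1.27. Srxn1 (0.51 and 0.50), G6pdx (0.67 and 0.69), Txnrd1 (0.31 and 0.28) and Gclm (-0.19 and -0.20) differed little between the positions. Nfe2l2 was near 0 in lower-villus cells (0.04) and at -0.14 in upper-villus cells. The difference between the positions was not tested.

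Along the intestine, enterocytes fell into a small class with more than 0.2% of UMIs from Fabp6 and a large class below that share, a division chosen after the data had been seen. Fabp6 marks the distal small intestine. Fabp6-high cells were 5.51%, 5.18% and 5.35% of control enterocytes and 13.8%, 13.1% and 12.4% under the IE-HuR-/- label, and 432 cells lay within a factor of 2 of the limit. Fabp6 itself differed between the labels, so that the Fabp6-high cells of the labels may not be the same kind of cell.

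Akr1b8 was found mainly in Fabp6-low enterocytes. In these cells it was 2.8, 3.5 and 3.5 CPM in the control libraries and 59.1, 61.1 and 65.8 CPM in those labelled IE-HuR-/-. In Fabp6-high cells it was 0.36, 0 and 0 CPM (1 UMI in all) and 5.1, 5.8 and 2.5 CPM (81 UMIs in all). Within the libraries labelled IE-HuR-/-, Fabp6-low cells therefore held 13.9 times the level of Fabp6-high cells. The labels were apart in both sums, with a log2 fold change of 4.40 in Fabp6-low cells. How many of all RNAs were apart in these sums was not counted. In Fabp6-high cells the ratio of pooled CPM was 36.7, with an exact 95% interval of 6.41 to 1469 that covers counting error only. The pooled level of Fabp6-high cells under the IE-HuR-/- label was 4.47 CPM. T and NK cells held 5.30 CPM under that label, a level not read as expression below. How much of the Akr1b8 RNA in Fabp6-high sums came from other cells was not tested.

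Cbr3, Cbr1 and Nqo1 were also higher in Fabp6-low cells, by different folds, whereas the reductase Akr1b7 was higher there in 3 of 6 libraries. Cbr3 was 28.4, 30.5 and 26.4 CPM in Fabp6-low cells of the libraries labelled IE-HuR-/- and 0.71, 0.31 and 0.50 CPM in their Fabp6-high cells, 57.2-fold apart. Cbr1 was 421.0, 453.3 and 466.4 CPM in the former and 63.8, 77.9 and 77.7 CPM in the latter, 6.10-fold apart, and Nqo1 differed 5.07-fold. These 3 genes, Akr1b8, Gclm and Nfe2l2 were higher in Fabp6-low cells in 6 of 6 libraries, 6 of the 10 members. The share was 23.1% of the 7478 RNAs with at least 10 UMIs in both classes of every library. Akr1b8 and Cbr3 are not among those RNAs. In Fabp6-high cells of the control libraries they had 1, 0 and 0 UMIs and 13, 7 and 0 UMIs, so that their direction there rests on few UMIs. Srxn1 was higher in Fabp6-high cells in 6 of 6 libraries, as were 19.4% of RNAs. Gclc, Txnrd1 and G6pdx differed in direction between libraries.

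Cbr1 and Nqo1 are shown by label in each class. Cbr1 in Fabp6-high cells was 201.2, 191.1 and 217.6 CPM in the control libraries and 63.8, 77.9 and 77.7 CPM under the IE-HuR-/- label, a log2 fold change of -1.12, whereas in Fabp6-low cells it was 390.2, 422.4 and 437.1 CPM and 421.0, 453.3 and 466.4 CPM (log2 0.26). Nqo1 was 18.6, 17.4 and 21.4 CPM and 9.2, 10.1 and 10.1 CPM in Fabp6-high cells (log2 -0.60), and 43.7, 42.0 and 46.8 CPM and 46.1, 50.2 and 52.8 CPM in Fabp6-low cells (log2 0.33). For both genes the labels were apart in Fabp6-high cells and overlapped on the CPM scale in Fabp6-low cells. The share of all RNAs without overlap was not counted in these sums. By edgeR, 2265 RNAs were called higher and 2095 lower in Fabp6-high cells. Gclc had a log2 fold change of 1.19 in Fabp6-low and of 0.51 in Fabp6-high cells, and Gclm of -0.11 and -0.66. Srxn1 differed little between the classes, with 0.59 and 0.72. The difference of these fold changes between the classes was not tested.

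**Figure D2:**
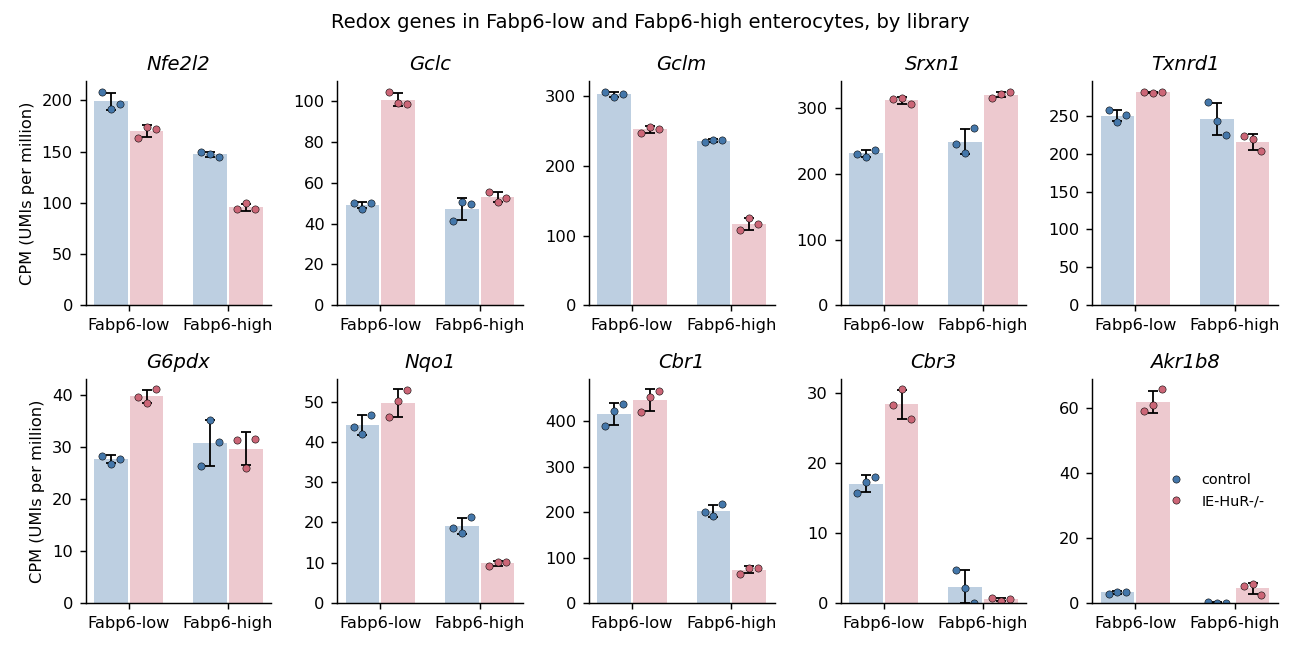
Level of the 10 redox genes in Fabp6-low and Fabp6-high enterocytes (CPM of the sum of that class, linear axes from 0) by label, with points for the 3 libraries, bars for their mean and error bars for the SD. Akr1b8, Cbr3, Cbr1 and Nqo1 are lower in Fabp6-high than in Fabp6-low cells of both labels, and Srxn1 is not.

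Whether the genes move together was then examined cell by cell. Enterocytes with at least 5000 UMIs were thinned to 5000 UMIs and the others were left out. This kept 1510 to 2833 cells per library, of 1982 to 4112 enterocytes. Cells with at least 1 Akr1b8 UMI were compared with the other cells kept from the same library. Such cells numbered 23, 37 and 23 in the control libraries (1.05% to 1.52%) and 272, 289 and 333 in the libraries labelled IE-HuR-/- (16.7% to 20.2%). Nqo1, Cbr1, Cbr3, Txnrd1 and Nfe2l2 were higher in cells with an Akr1b8 UMI in 6 of 6 libraries, 5 of the other 9 members beside 10.6% of 5124 RNAs. In the 3 libraries labelled IE-HuR-/-, which hold most of these cells, each of the 9 was higher, beside 35.6% of RNAs.

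Cbr3 differed most, with log2 ratios of 1.86 to 2.34. In the libraries labelled IE-HuR-/- it was 79.4, 76.1 and 66.7 CPM in cells with an Akr1b8 UMI and 19.4, 21.0 and 17.7 CPM in cells without. Nqo1 was 74.3, 98.3 and 90.1 CPM in the former and 35.6, 39.6 and 36.7 CPM in the latter. Srxn1 was the member nearest to even, with log2 ratios of 0.08 to 0.21 in these libraries and of -0.15 to -0.06 in the control libraries. Gclm was higher in 4 of 6 libraries and G6pdx in 4 of 6. The values of the control libraries rest on few UMIs, for Cbr3 on 9, 11 and 11 in the cells with an Akr1b8 UMI.

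The count of members depended on how cells were compared. It was 5 of 9 within lower-villus cells (beside 12.9% of RNAs) and 0 of 9 within upper-villus cells (4.43%). Within the latter each of the 9 was higher in all 3 libraries labelled IE-HuR-/-, as were 31% of RNAs. It was 4 of 9 within Fabp6-low cells (10.2%), where Nqo1 fell out because of control replicate 1 (log2 -0.02). With cells divided by an Nqo1 UMI in place of Akr1b8 it was 8 of 9, beside 35.3% of RNAs, and 8 of 9 in the 3 libraries labelled IE-HuR-/-, beside 42.8%. Fabp6 was lower in cells with an Akr1b8 UMI in 6 of 6 libraries, for example 70.3 to 375.1 CPM against 3103 to 3309 CPM in the libraries labelled IE-HuR-/-.

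**Figure D3:**
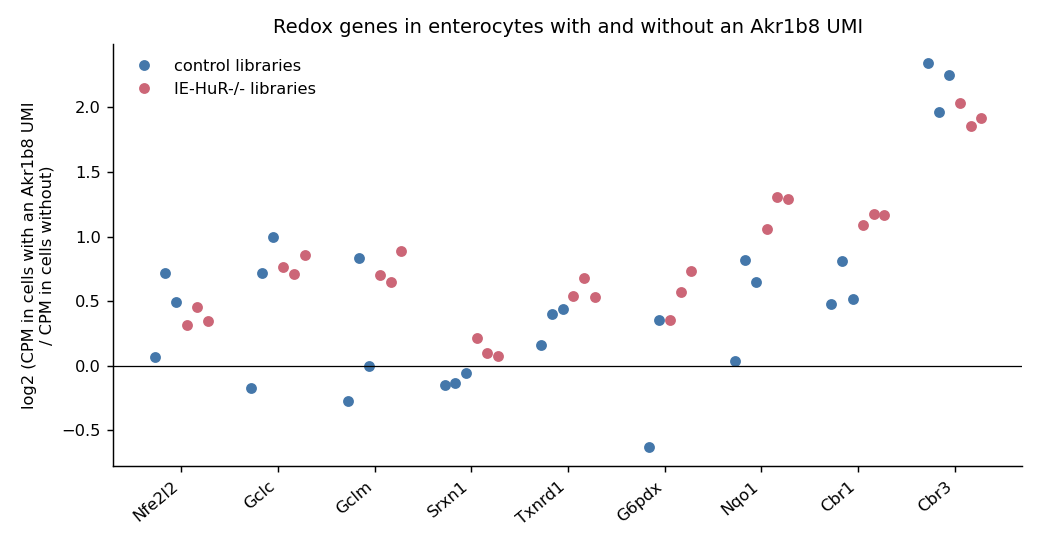
Log2 ratio of the level of 9 redox genes in enterocytes with an Akr1b8 UMI to that in enterocytes without, with 1 point per library (cells thinned to 5000 UMIs, a point is left out where the gene had no UMI). Cbr3 lies at 1.86 to 2.34 in all 6 libraries, and Srxn1 lies close to 0.

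Across enterocytes of a library, correlations between members were weak. Over 45 pairs, Pearson's r of log values of cells thinned to 5000 UMIs was between -0.10 and 0.44, with a median of 0.07, and the cells of a library share their depth and free RNA. The highest pairs were Nqo1 with Cbr1 (0.30 to 0.42 over the 6 libraries) and Cbr1 with Cbr3 (0.28 to 0.44). Cbr1 also had r of 0.23 to 0.29 with Nfe2l2 and 0.23 to 0.38 with Gclm, and Nqo1 had r of 0.17 to 0.29 with Cbr3. These 5 pairs alone exceeded 0.1 in every library. Cbr1 exceeded 0.1 in every library with 23.4% of RNAs and Nqo1 with 8.92%, so that passing 0.1 is not particular to the redox genes. How many RNAs reached the values of the highest pairs was not counted. Within upper-villus cells Cbr1 and Cbr3 had r of 0.17 to 0.36, and within Fabp6-low cells 0.29 to 0.44.

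Other cell classes were compared between labels with edgeR. In T and NK cells, where villin-Cre is taken to be inactive, Akr1b8 was the only one of the 10 members called. It had 1, 3 and 1 UMIs in the control libraries and 22, 30 and 28 UMIs in the others (log2 fold change 3.58, SE 0.446, edgeR adjusted p = 2.8e-04). Of 11066 RNAs, 3.52% were called and 2% were called higher. Enterocyte RNA was also present in these sums, and whether it came as free RNA or from barcodes with more than 1 cell was not tested. The 12 enterocyte markers stood in T and NK cells at 4.83% to 23.2% of their enterocyte level, and Akr1b8 at 8.54% to 19.5%, within the range of the markers of the same library in 6 of 6 libraries. The Akr1b8 level of T and NK cells was thus not distinguishable from the share of enterocyte RNA in these sums and is not read as expression there. Gclc, Gclm, Txnrd1, G6pdx and Nfe2l2 lay above every marker in 6 of 6 libraries, so that their UMIs exceed this background, and none was called between labels. The next lowest adjusted p was that of Gclm (0.151, log2 -0.59).

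**Figure D4:**
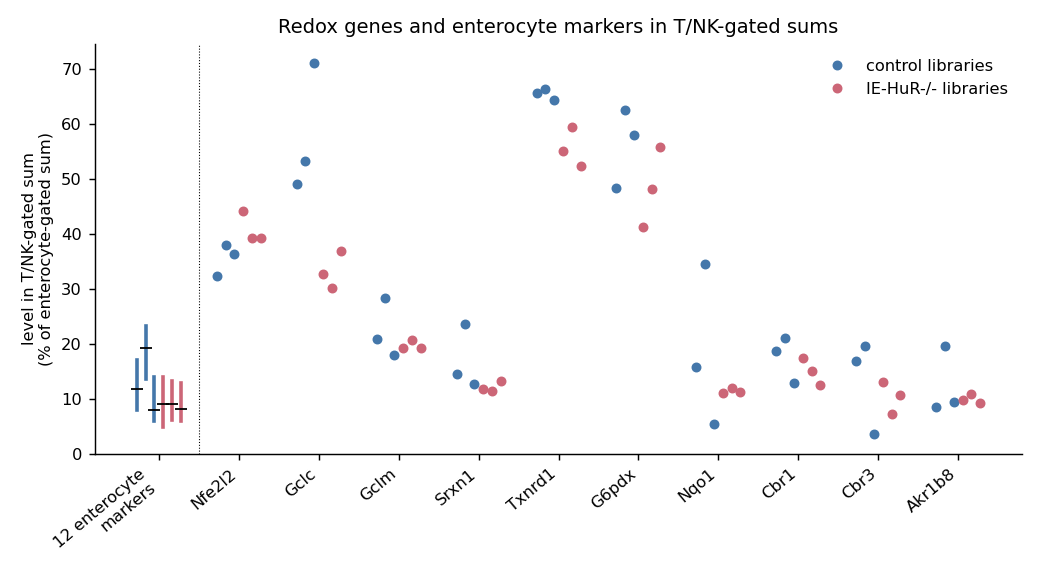
Level of the 10 redox genes in T and NK cells as a percent of their enterocyte level in the same library (linear axis), with 1 point per library and, on the left, the range (line) and median (tick) of 12 enterocyte markers in each library. Akr1b8 lies at 8.54% to 19.5%, within the range of the markers, and Txnrd1 at 52.3% to 66.4% above it.

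After thinning to 2500 UMIs, 12.6% to 13.3% of enterocytes of the libraries labelled IE-HuR-/- had an Akr1b8 UMI, against 0.749% to 0.856% in the control libraries. In T and NK cells the shares were 0.461% to 1.30% and 0% to 0.338%. Thinning left out 803 control enterocytes and 625 of the others. Without thinning, at a median depth of 10805 UMIs in enterocytes, the enterocyte shares were 29.9% to 33.8% and 3.16% to 4.79%, and in T and NK cells, at a median of 4892 UMIs, 1.82% to 2.62% and 0.122% to 0.297%.

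In goblet cells, which secrete mucus and belong to the epithelium in which villin-Cre is active, 4 members rose and 3 fell at an adjusted p under 0.05, beside 14.8% and 12.5% of 9070 RNAs. The members were chosen on enterocytes of these libraries, whose RNA is also in the goblet sums. These calls are therefore not independent of that choice. Akr1b8 was 2.8, 0.9 and 0.9 CPM in the control libraries and 30.7, 18.5 and 15.4 CPM in the others (log2 fold change 3.95, SE 0.374, edgeR adjusted p = 5.9e-06). The control libraries held few UMIs, and the log2 fold change was 4.70 without control replicate 1 and 3.60 to 5.02 over 15 alternatives. Under the IE-HuR-/- label the 230 UMIs of Akr1b8 lay in 61 of 519 goblet cells. After thinning to 2500 UMIs, 0.781% to 5.19% of goblet cells under that label had an Akr1b8 UMI. In the control libraries 0% to 1.04% did, so that the labels overlapped at equal depth. Without thinning the shares were 8.47% to 14.8% and 1.02% to 2.55%. Gclc rose from 40.8, 41.1 and 39.1 CPM to 61.0, 69.9 and 46.6 CPM (log2 0.72, SE 0.124, edgeR adjusted p = 1.3e-04). Both were higher without overlap, but the share of all RNAs without overlap was not counted in goblet sums. Srxn1 (log2 0.35, adjusted p = 0.0094) and G6pdx (log2 0.43, adjusted p = 0.031) were also called, although their libraries overlapped on the CPM scale. Srxn1 lost the call under 3 of 15 alternatives and G6pdx under 8.

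The 3 members that fell in goblet sums were the factor itself, the modifier subunit and a carbonyl reductase. Nfe2l2 fell from 147.6, 127.0 and 131.0 CPM to 78.7, 82.5 and 67.9 CPM (log2 -0.65, SE 0.0987, edgeR adjusted p = 3.8e-05). Gclm fell from 168.9, 173.5 and 157.3 CPM to 102.5, 105.4 and 79.4 CPM (log2 -0.62, edgeR adjusted p = 1.0e-04). Cbr1 fell from 153.1, 162.6 and 177.3 CPM to 120.5, 105.7 and 73.8 CPM (log2 -0.54, edgeR adjusted p = 0.0066). All 3 were lower without overlap, a share again not counted over all RNAs. Without TMM scaling, 759 RNAs were called higher in goblet sums and 2310 lower. Txnrd1, Nqo1 and Cbr3 were not called, with log2 differences of -0.05, -0.25 and 0.38. Nqo1 was called lower without the 10% of cells with most UMIs (log2 -1.02, edgeR adjusted p = 0.011). The difference between the goblet and enterocyte fold changes was not tested.

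Goblet sums also held much enterocyte RNA. The medians of the 12 enterocyte markers were 39.4% to 61.0% of their enterocyte level, and Fabp6 was called higher in goblet sums as well (4.39-fold). The summed level of these markers was 41582 to 44114 CPM in the control libraries and 28406 to 37841 CPM in the others, without overlap, with 0 of 12 called higher, 4 called lower and none at 0. Akr1b8 stood at 27.0% to 102% of its enterocyte level, above every marker in 2 libraries, within their range in 2 and below it in 2. Gclc stood at 50.6% to 86.7%, above every marker in 6 of 6 libraries. Srxn1 and G6pdx each lay above every marker in 5 libraries and within their range in 1. Of the members that fell, Gclm (33.9% to 58.7%) and Cbr1 (17.9% to 41.6%) lay within the range of the markers in 6 of 6 libraries. Nfe2l2 (42.2% to 71.8%) lay above it in 3 and within it in 3. The goblet levels of Gclm and Cbr1 were thus not distinguishable from the share of enterocyte RNA in these sums. The part of enterocyte RNA in the goblet differences was not tested.

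The label difference in goblet cells was set against that in T and NK cells of the same animals as an interaction. None of the 10 members was called by edgeR, beside 3.63% of 11809 RNAs, and 2 had an unadjusted p under 0.05. They were Nfe2l2, whose log2 difference was lower in goblet cells by 0.51 (SE 0.144, adjusted p = 0.059), and Gclc with 0.59 (SE 0.213, adjusted p = 0.14). Nfe2l2 passed the threshold under 4 of 10 alternatives, with adjusted p from 0.0050 to 0.27. For Akr1b8 the interaction was 0.37 (SE 1.14). Its level in T and NK cells was not distinguishable from enterocyte RNA, so that this value does not compare expression in 2 classes.

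**Figure D5:**
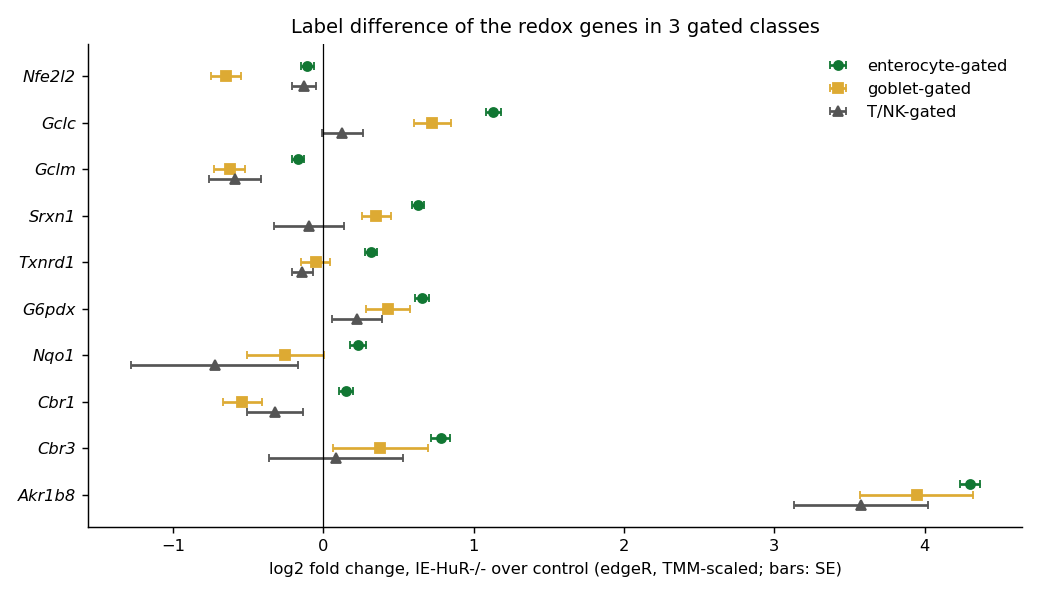
Log2 fold change of the libraries labelled IE-HuR-/- over the control libraries (edgeR, TMM-scaled) of the 10 redox genes in enterocytes, goblet cells and T and NK cells. Error bars give the SE derived from the F statistic of the test of 3 libraries against 3. Akr1b8 lies at 4.30, 3.95 and 3.58, and Gclm and Nfe2l2 lie below 0 in all 3 classes.

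Few cells limited the other epithelial classes. In tuft cells 7 members had enough UMIs to be compared and 0 were called by edgeR (2 at an unadjusted p under 0.05), beside 0.231% of 5633 RNAs. In enteroendocrine cells 8 were compared and 0 called (1 unadjusted), beside 0.601% of 8480 RNAs. Here Gclc was 67.3, 97.4 and 70.4 CPM in the control libraries and 134.2, 115.8 and 119.8 CPM in the others (log2 0.68, edgeR adjusted p = 0.13), higher without overlap. The share of all RNAs without overlap was not counted in this class. In crypt progenitors 4 were compared and 0 called (0 unadjusted), beside 0.0381% of 2625 RNAs. Akr1b8 had too few UMIs to be compared in these 3 classes.

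In the control libraries the classes in which each gene stood highest differed. Cbr1 was highest in enterocytes (405 ± 23.1 CPM, SD, n = 3) without overlap with the next class, tuft cells (271 ± 73.0 CPM). Srxn1 was highest in enterocytes as well (232 ± 5.66 CPM), without overlap with goblet cells (160 ± 10.3 CPM). Txnrd1 was highest in enterocytes but overlapped with tuft cells. Gclc was highest in enteroendocrine cells (78.4 ± 16.6 CPM), which overlapped with tuft cells (61.5 ± 8.18 CPM), and tuft cells lay above enterocytes (49.0 ± 1.45 CPM). Gclm was highest in tuft cells (323 ± 32.3 CPM) and overlapped with enterocytes. G6pdx and Nfe2l2 were highest in the few myeloid cells, in which 41 and 119 UMIs were counted. G6pdx (76.8 ± 35.2 CPM) did not overlap there with the next class, crypt progenitors (38.7 ± 5.09 CPM). Nfe2l2 (204 ± 45.9 CPM) overlapped with enterocytes (196 ± 8.23 CPM).

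Akr1b8 in the control libraries was highest in crypt progenitors, at 8.8, 72.6 and 61.2 CPM. These values rest on 3, 4 and 11 UMIs in 4 of 30 cells, and the pooled level was 31.3 CPM (exact 95% interval 18.5 to 49.4, counting error only), against 3.11 CPM (2.84 to 3.40) in control enterocytes. Control fibroblasts came next (21.3 ± 17.2 CPM), overlapped with crypt progenitors and lay above enterocytes without overlap. They held 12 UMIs in 8 of 81 cells, with a pooled level of 18.3 CPM (9.44 to 31.9). In the libraries labelled IE-HuR-/- crypt progenitors had 27.5, 25.1 and 0 CPM, so that the labels overlapped there. Nqo1 was also highest in control crypt progenitors (58.8 ± 17.4 CPM) and overlapped with enterocytes.

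The wider Nrf2 system was followed with a list of 52 genes that leaves out the 10 members. The list was chosen with earlier results of these data known. Its counts and p-values are therefore a description and not independent evidence. Of these, 48 could be compared in enterocytes, and 27 (56.2%) rose and 16 (33.3%) fell by edgeR, beside 29.6% and 29.7% of all RNAs. The median log2 fold change was 0.25, and -0.01 over all RNAs. Without TMM scaling the split was 17 higher (35.4%) and 20 lower (41.7%), beside 14.7% and 50% of all RNAs. Because RNAs with many UMIs are called more often, the same was counted for RNAs of at least 10 CPM, where 26 of 43 list genes were higher (60.5%) and 13 lower, beside 44.2% and 25.2% of 6138 RNAs.

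Of the NADPH enzymes on the list, 4 of 5 rose and 1 fell. Me1, malic enzyme, rose from 32.8 ± 1.82 CPM to 74.4 ± 0.768 CPM (SD, n = 3; log2 1.38, edgeR adjusted p = 2.5e-21), and Pgd, the NADPH-forming enzyme after G6pdx in the pentose phosphate pathway, rose by 0.82 on the log2 scale. Of the 14 glutathione genes compared, 7 rose and 5 fell. Gpx2, the gastrointestinal glutathione peroxidase, rose from 121 ± 18.2 CPM to 656 ± 27.1 CPM (log2 2.63, edgeR adjusted p = 6.6e-05), and Gss, glutathione synthetase, and Gsr, glutathione reductase, both rose by 0.80. The falls among them included Gsta3 (log2 -1.05), a glutathione transferase, and Mgst1 (log2 -1.04), a membrane-bound glutathione transferase.

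Of the 5 thioredoxin and peroxide genes 4 rose and 1 fell, and of the 9 regulators 6 rose and 2 fell, with Maff, a small Maf partner of Nrf2, rising by 0.89. The carbonyl, quinone and xenobiotic genes were divided, with 4 of 10 higher and 5 lower. Adh7 (log2 -1.11), Akr1b7 (log2 -0.86) and Nqo2 (log2 -0.58) had the largest falls among them. The level of Adh7 was very low, at 1.17 ± 0.249 CPM in the control libraries and 0.469 ± 0.155 CPM in the others. Of the 4 haem and iron genes 1 rose and 2 fell, and Fth1, the ferritin heavy chain, fell from 8884 ± 378 CPM to 4723 ± 181 CPM (log2 -0.71, edgeR adjusted p = 7.4e-14). The remaining gene on the list rose.

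The RNAs most like Akr1b8 over 55 sums of a class in a library, among 8445 RNAs, were Mt1 (Pearson's r 0.71 of log2 CPM), Car4 (0.56), C1qtnf12 (0.55), Tgm2 (0.55) and Gpx2 (0.52). The sums share libraries, and the label and free RNA enter the likeness. Mt1, a metallothionein that binds zinc and copper, was 186.0, 209.8 and 232.9 CPM in control enterocytes and 1989, 2144 and 2224 CPM under the IE-HuR-/- label. Unlike Akr1b8, Mt1 and Gpx2 were higher in Fabp6-high than in Fabp6-low cells in 6 of 6 libraries. Of the members, Nqo1 came nearest to Akr1b8 (r 0.40), in place 69, and Cbr3 did not reach the level needed for this comparison.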

How the data were processed

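For each library the deposited values are raw UMI counts by gene and barcode, not normalized, as the authors obtained them from Cell Ranger (version 6.1.2 in the headers). The submitters' notes name Cell Ranger, Seurat and build mm10, whereas the methods name an earlier version, a human reference and another kit end than the labels. The deposited features are mouse genes. Every barcode had at least 500 UMIs, which limits what is known of empty droplets. Gene positions were taken from GENCODE vM21.

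The members and lists were chosen with earlier results of these data known. Barcodes with at least 200 genes were kept and cells were assigned by marker gates, with no doublet caller. The 149 barcodes that passed several gates other than that of enterocytes were removed. The enterocyte gate was applied only to barcodes in no other gate. A barcode that also met the enterocyte gate therefore stayed in its other class. An enterocyte needed 2000 UMIs, 3% of UMIs from the 12 markers and 6 markers detected. Counts were summed per library and class, and CPM are relative to that sum. Cells were not replicates, and each label had 3 libraries. Sums were compared with edgeR 4.0.16, run under R 4.3.3 (TMM scaling, the filter filterByExpr, robust quasi-likelihood test, Benjamini-Hochberg adjustment over all RNAs tested, threshold 0.05) and with DESeq2 1.42.0 as the alternative. The test was also run on simulated counts in which every RNA had the same spread between libraries. That setting is simpler than these sums, and nothing is read from it here. The SE of an edgeR fold change is the absolute log2 fold change divided by the square root of the F statistic of its test. It is not computed directly from the spread of the libraries. Thinning, shares and correlations were computed in Python 3.11.15 with numpy 2.4.6 and scipy 1.17.1. Libraries of 1 label differed by more than sampling noise (chi-square per degree of freedom of at least 10.7). Named genes were the 10 members, Elavl1, up to 6 rises and 6 falls of the Nrf2 list by fold, the 5 RNAs most like Akr1b8, and fixed markers of villus position and region. Akr1b10 and G6pd2 are named for shared sequence. Alternatives were no TMM, no filter on low counts, DESeq2, stricter and looser gates, a filter on genes and mitochondrial UMIs, removal of the 10% of cells with most UMIs, thinned totals, villus position, a replicate block and leaving out each library. The Fabp6 division and the limit of 10 CPM were added after the data had been seen.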

Additional observations from a re-analysis of the deposited data

How the results depend on the processing

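Of the member values, the enterocyte fold change of Akr1b8 was 4.08 to 5.21 (log2) and that of Gclc 0.51 to 1.27 over 19 alternatives, and Gclm stayed below 0 (-0.66 to -0.11), whereas Cbr1 (-1.12 to 0.49), Nqo1 (-0.60 to 0.57) and Nfe2l2 (-0.30 to 0.04) took both signs. In goblet sums Akr1b8, Gclm and Nfe2l2 kept their calls under all 15 alternatives. Gclc lost it without the 10% of cells with most UMIs (log2 0.30 against 0.72, adjusted p = 0.077), and Cbr1 with the stricter gate at an unreduced fold (log2 -0.56 against -0.54, adjusted p = 0.075). Nqo1 gained a call without the 10% of cells with most UMIs (log2 -1.02, adjusted p = 0.011). Differences that were not called changed sign for Cbr3 in goblet cells with the stricter gate (-0.35), without the 10% of cells with most UMIs (-0.35) and without IE-HuR-/- replicate 2 (-0.046, against up to 0.66 without other libraries), for Nqo1 there without IE-HuR-/- replicate 3 (0.056, against down to -0.45), for Txnrd1 there with the looser gate (0.014), and for the Akr1b8 interaction without control replicate 2 (-0.53, against up to 1.39). The cause was not tested.

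RNAs called in enterocytes numbered 7432, and 4360 in Fabp6-high cells and 4259 among RNAs of at least 10 CPM, both of which compare fewer cells or RNAs. Leaving out 1 library gave 6774 to 7134 in enterocytes, 1873 to 2419 in goblet, 3 to 60 in tuft, 7 to 102 in enteroendocrine, 0 to 34 in crypt progenitor, 108 to 890 in T and NK cells, 110 to 921 for the interaction and 25 to 28 rises of the Nrf2 list. Counts moved by over 1.5 times without IE-HuR-/- replicate 1 (60), 2 (24) or 3 (3) and control replicate 2 (7) or 3 (8) in tuft cells, without control replicate 1 (15) or 2 (7) and IE-HuR-/- replicate 1 (102) or 3 (20) in enteroendocrine cells, whichever library was left out in crypt progenitors, and in T and NK cells without control replicate 1 (152) or 3 (890) and IE-HuR-/- replicate 1 (134), 2 (120) or 3 (108). For the interaction they did so without control replicate 1 (110) or 3 (921) and IE-HuR-/- replicate 1 (117), 2 (250) or 3 (111). No filter on low counts gave 112 calls in tuft, 332 in enteroendocrine, 14 in crypt progenitor and 843 in T and NK cells and 793 for the interaction. The stricter gate gave 2, 30 and 12 in tuft, enteroendocrine and crypt progenitor cells, and the looser gate 76, 22 and 7, with 220 in T and NK cells. Without the 10% of cells with most UMIs there were 22, 29 and 0. DESeq2 gave 24 in tuft cells, 0 in crypt progenitors and 211 for the interaction. Without TMM there were 4 calls in crypt progenitors and 860 for the interaction. The filter of 500 genes and 25% mitochondrial UMIs gave 5 in crypt progenitors, and thinned totals gave 0 there and 244 in T and NK cells. The Nrf2 list had 17 rises without TMM and 15 in Fabp6-high cells. The members higher beside Akr1b8 in 6 of 6 libraries were 8 without thinning (beside 25.5% of RNAs), 3 at 2500 UMIs (11%), 0 in upper-villus cells (4.43%) and 8 with Nqo1 in place of Akr1b8 (35.3%), against 5 (10.6%).

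Same-numbered libraries deviated together in some classes and apart in others, with correlations of mixed sign, so that the numbers name the samples and do not pair them. With the replicate number as a block there were 7445 calls in enterocytes, 2509 in goblet, 4 in tuft and 133 in enteroendocrine cells, and 194 for the interaction.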
